A study of Mus musculus with 11 samples.

Results

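The genes described are 39 enzymes, transporters and regulators of glycolysis and glycogen metabolism, out of 28284 genes in the count table. They were listed by name, with earlier results of these data known, and all 39 had a row. RNA sequencing had been done on 11 cell lines of the OvTrpMyc mouse, 1 library per line, with no treatment. All lines carry the genotype Ovgp1-Trp53-R270H-Myc, in which an Ovgp1 promoter drives a mutant p53 (R270H) and Myc from the Trp53 locus on a C57BL/6 background, and ages are not given in the labels. They came from 7 mice. The ovary gave 7 lines (ROV and LOV stand for right and left ovary) and the uterus 2, and tumors of the peritoneum and of the spleen gave 1 each. No line without the transgene was analysed here, each line stands for 1 culture, and the study states that the F361 line did not keep the mutant p53 copy expressed.

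Glycolysis breaks glucose down to pyruvate, and most of its steps can be run by several isoenzymes coded by separate genes. Adult skeletal muscle uses its own set, such as the phosphofructokinase Pfkm, the enolase Eno3, the phosphoglycerate mutase Pgam2, the glycogen phosphorylase Pygm and the insulin-regulated glucose transporter Slc2a4. Dividing cells rely more on Pfkp, Eno1, Pgam1, Pygl and Slc2a1, and Myc and low oxygen are both known to raise several glycolytic genes.

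The libraries fell into 2 sets by library number. Libraries 1 to 7 are F364 ROV, F326 splenic tumor, F364 LOV, F326 ROV, F361 peritoneal tumor, F319 ROV and F318 ROV. Libraries 8 to 11 are F339 ROV, F318 LOV and the uterus lines of F319 and F333, in that order. A list of 32 adult skeletal muscle fiber genes took 7.71 to 14.4% of all counts in libraries 1 to 7 and 0.157 to 1.24% in libraries 8 to 11, and 30 of the 32 did not overlap between the sets. Tnnc2 of that list had no count in F318 LOV. Levels are given in CPM, counts per 1000000 counts of the library. The 4 Y-linked genes summed to 128 to 174 CPM in the first set against 1.75 to 19.2 CPM in the second, although ovary and uterus are female organs. Developing muscle markers summed to 345 to 524 CPM against 5.11 to 37.9 CPM (6 of 7 without overlap), and blood and macrophage markers to 47.3 to 338.8 CPM against 5.50 to 12.2 CPM (4 of 5). Mesenchyme markers summed to 705 to 12482 CPM against 14129 to 23479 CPM, with 3 of 5 lower without overlap in libraries 1 to 7. Col1a2 and Pdgfrb overlapped, Col1a2 being at 5.21 CPM in F319 uterus and 3672 CPM in F318 ROV. Endothelial markers summed to 56.1 to 253 CPM against 1.48 to 70.9 CPM (2 of 3 without overlap), adipocyte markers to 0.742 to 31.7 CPM against 0.235 to 1.30 CPM (1 of 5) and heart markers to 16.4 to 30.4 CPM against 4.73 to 143.7 CPM (1 of 4). Among all genes with a mean of at least 1 CPM, 17.1% were higher without overlap in libraries 1 to 7 and 27.8% lower. Slc2a4, described below, is also the transporter of fat cells, and the part of these cells in the results was not tested. The 6 epithelial markers summed to 2.66 to 147 CPM against 2.79 to 17.5 CPM, with F319 ROV the highest (Krt18 67.9 and Krt8 52.7 CPM) and F364 ROV next (Krt18 39.9 CPM). Epcam reached at most 2.12 CPM and Pax8 at most 3.04 CPM in any library. The lines are labelled ovarian cancer, and these muscle and Y-linked counts go against that label, most strongly in libraries 1 to 7. At lower levels they were also in F339 ROV, F319 uterus and F333 uterus. There the Y-linked genes summed to 19.2, 10.5 and 11.4 CPM and the muscle list to 1.04, 0.688 and 1.24% of counts. The set and the muscle content cannot be told apart, and in bulk samples neither can fewer cells of a type and less RNA per cell. The cut between the sets was noticed in these same counts, so differences between the sets are described without a test. Total counts per library were 13580525 to 27044598 (median 17517765).

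Promoters of 3 of these isoforms are shown because each holds a motif searched for: Pgam2 and Pgam1, the pair whose ratio differed most between the sets, and Pfkm, the muscle phosphofructokinase. They are the 250 bases before a RefSeq start on GRCm38.p6, written 5′ to 3′ on the gene's strand, with motifs in capitals. They are CAGCTG and, further on, a MEF2 match for Pgam2 (chr11:5803797-5804046, minus strand), ACGTG for Pgam1 (chr19:41911621-41911870, plus strand) and CACGTG for Pfkm (chr15:98092339-98092588, plus strand).
Pgam2: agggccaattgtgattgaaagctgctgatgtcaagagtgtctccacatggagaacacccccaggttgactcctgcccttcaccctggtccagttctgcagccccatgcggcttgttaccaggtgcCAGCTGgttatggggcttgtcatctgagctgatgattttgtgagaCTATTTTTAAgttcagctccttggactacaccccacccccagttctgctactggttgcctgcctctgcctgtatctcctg
Pgam1: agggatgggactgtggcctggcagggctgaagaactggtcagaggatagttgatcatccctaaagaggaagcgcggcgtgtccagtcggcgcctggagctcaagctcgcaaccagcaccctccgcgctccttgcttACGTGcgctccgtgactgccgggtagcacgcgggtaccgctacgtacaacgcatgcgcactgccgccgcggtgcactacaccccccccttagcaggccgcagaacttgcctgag
Pfkm: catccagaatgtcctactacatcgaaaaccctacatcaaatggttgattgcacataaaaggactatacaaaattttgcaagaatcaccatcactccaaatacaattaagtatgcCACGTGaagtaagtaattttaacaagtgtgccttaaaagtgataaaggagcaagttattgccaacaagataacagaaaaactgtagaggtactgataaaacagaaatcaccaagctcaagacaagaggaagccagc
Of the 10 paired isoforms, 9 had a RefSeq start in the promoter set used here, and Slc2a4 had no entry in it. There were 14 starts in all (7 of muscle and 7 of proliferating-cell isoforms, among them 4 of Pfkm and 3 of Eno1). The 250 bases before each start were searched on both strands. CACGTG, the letters Myc and related factors can bind, was in 1 of 7 muscle windows (1 of the 4 of Pfkm) and 0 of 7 others, against 6.02% of all 32851 windows. CAGCTG, an E-box that muscle factors such as MyoD can bind, was in 2 of 7 (Pgam2 and Pygm) and 0 of 7, against 13.0%. ACGTG, the core of the site bound by hypoxia-inducible factors, was in 3 of 7 (Pygm and 2 of Pfkm) and 3 of 7 (Pgam1, Pygl and Slc2a1), against 16.6%, and it lies within CACGTG. A match to the MEF2 consensus, a site of muscle gene regulators, was in 1 of 7 (Pgam2) and 0 of 7, against 2.92%. Windows of 1 gene can overlap.

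Many of the 39 genes differed between the sets of libraries. Of the 37 with a mean of at least 1 CPM, 17 were higher in every one of libraries 1 to 7 than in any of libraries 8 to 11, 6 were lower and 14 overlapped. Over all 14665 genes with that mean, 17.1% were higher without overlap and 27.8% were lower. The median difference of medians (log2 CPM + 1, libraries 1 to 7 minus 8 to 11) was 1.26 for the 37 genes and -0.39 for all genes. With TMM factors the median of all genes was -0.05 and that of the 37 genes 1.504, and the split was 18 higher and 6 lower, against 22.7% of all genes higher and 19.5% lower. DESeq2 size factors gave 18 and 6 too, against 22.2% and 20.2%. In both Pfkfb2 was the gene that changed side. The 2 genes below the mean were Aldoc, the aldolase of brain, and Pygm.

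**Figure D1:**
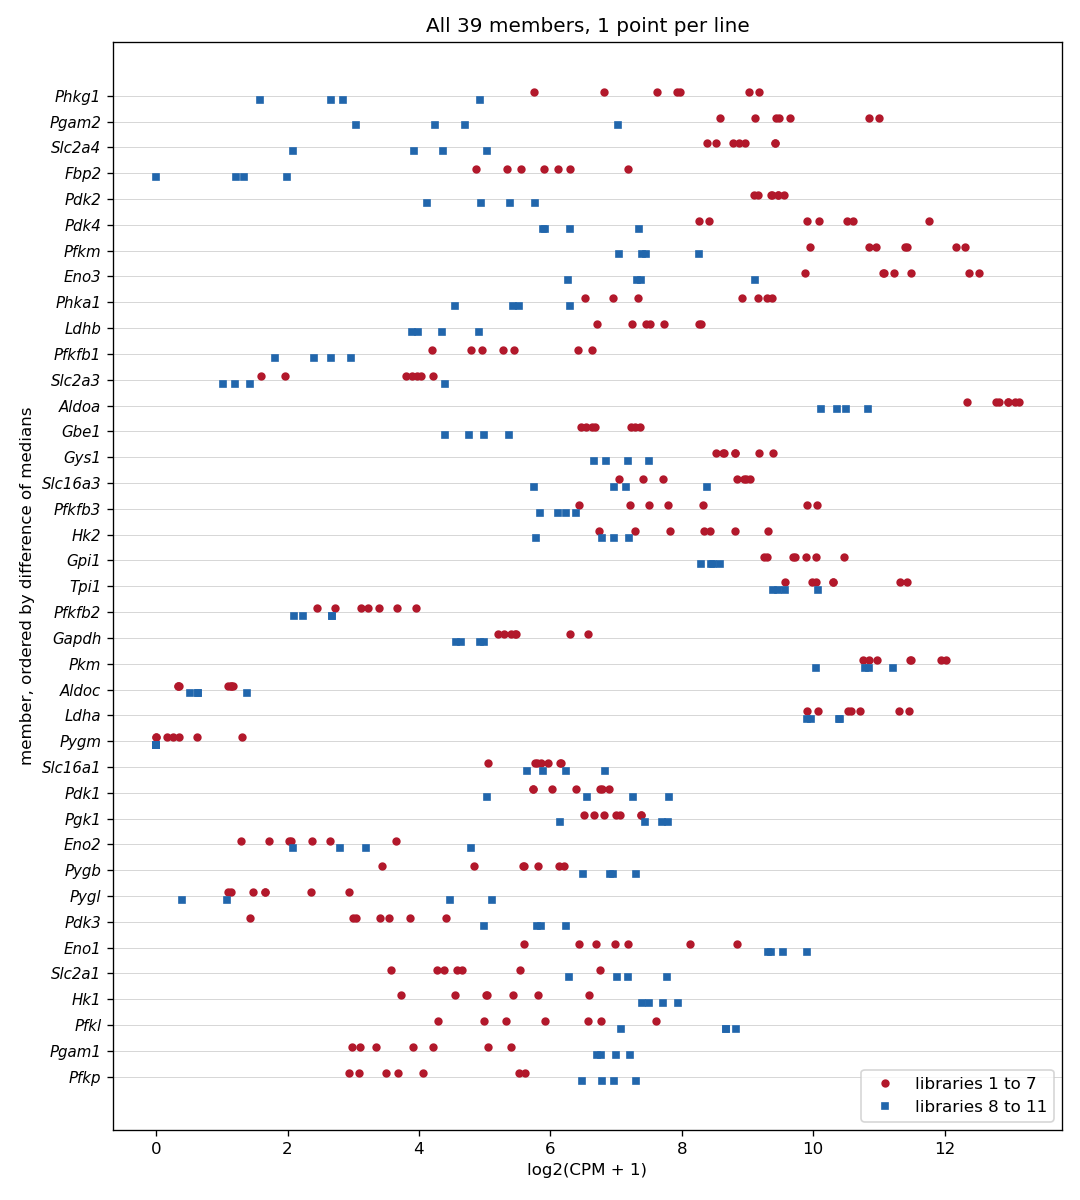
The x axis is log2(CPM + 1) and each row is 1 of the 39 genes, ordered by the difference of medians between libraries 1 to 7 (red circles) and libraries 8 to 11 (blue squares), with 1 point per line. The muscle genes Phkg1, Pgam2, Slc2a4 and Fbp2 at the top sit apart with libraries 1 to 7 to the right, and Pfkp and Pgam1 at the bottom sit apart the other way.

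The 2 main glucose transporters ran in opposite directions between the sets. Slc2a4 (ENSMUSG00000018566.14, chromosome 11, 69942539 to 69948188, minus strand, all gene positions being those of GENCODE on GRCm38) was at 498, 469, 365, 681, 687, 332.8 and 439.8 CPM in libraries 1 to 7, in the order given above. In libraries 8 to 11 it was at 19.6, 3.23, 14.1 and 31.9 CPM. The 3.23 CPM of F318 LOV rests on 74 counts (95% Wilson interval 2.57 to 4.05 CPM), and the sets did not overlap, with medians 27.8-fold apart. Slc2a1 (ENSMUSG00000028645.11, chromosome 4, 119108711 to 119137983, plus strand), the glucose transporter of most dividing cells, was at 22.8, 18.3, 24.2, 19.8, 10.9, 45.4 and 107 CPM. In libraries 8 to 11 it was at 128, 218, 144 and 77.2 CPM. Here F318 ROV, with 107 CPM, lay above F333 uterus, so the sets overlapped although their medians differed 5.97-fold. Per kilobase of exon, Slc2a4 made up a median of 94.1% of the 3 glucose transporters in libraries 1 to 7 and 11.1% in libraries 8 to 11, and Slc2a1 4.28% and 88.4%. Slc2a3, a transporter of high affinity, was at 2.03 to 17.5 CPM against 1.02 to 20.2 CPM, with F318 LOV the highest of all lines. The lactate transporters overlapped too: Slc16a1 was at 32.2 to 70.4 against 49.1 to 113 CPM and Slc16a3, the exporter, at 131 to 523 against 52.9 to 331 CPM.

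**Figure D2:**
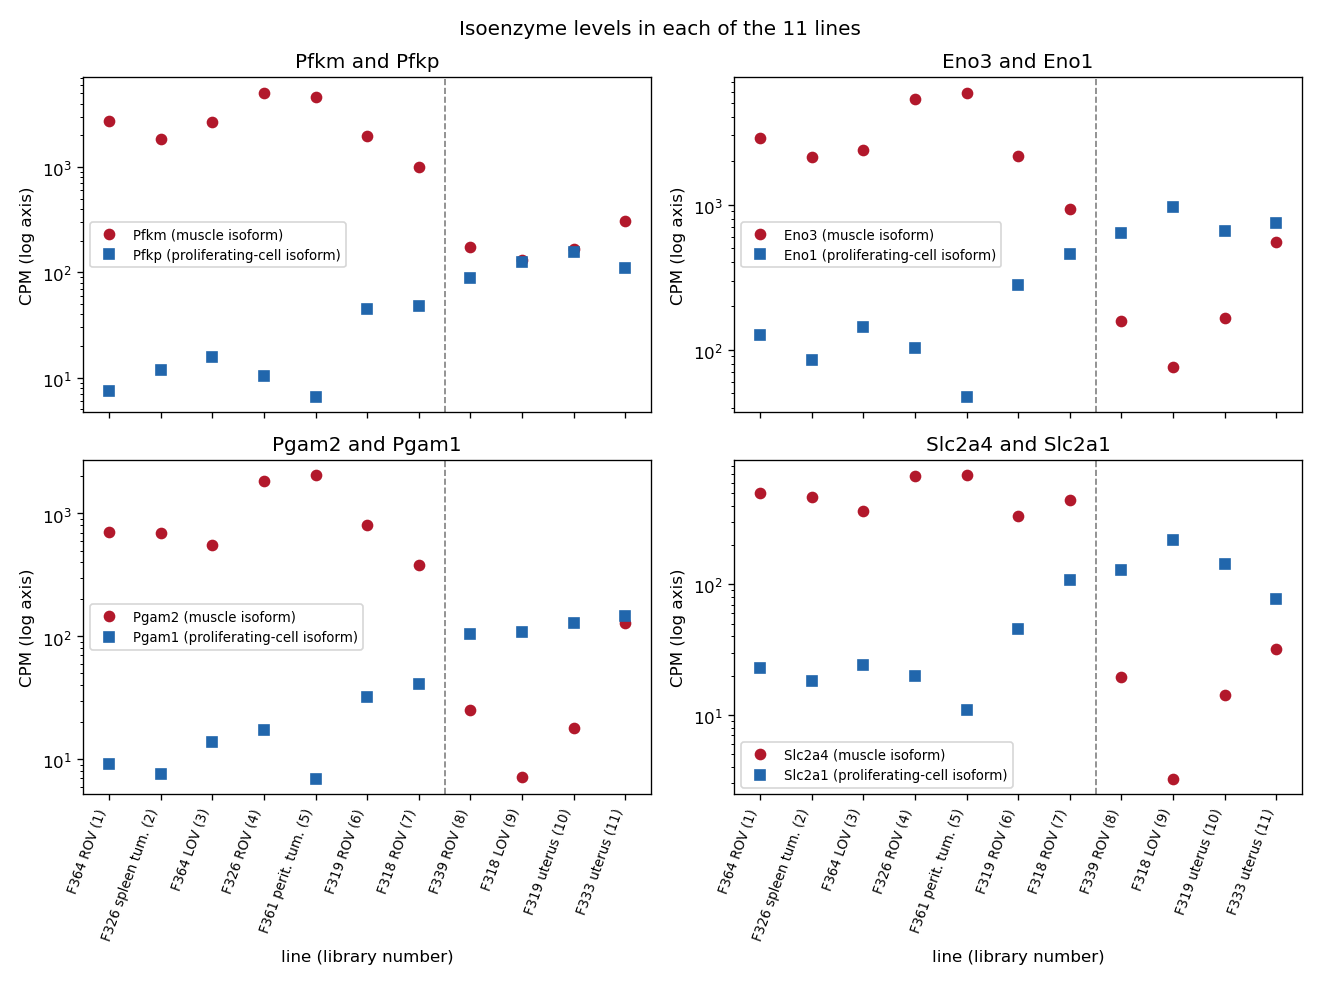
Each panel plots 1 pair of isoforms, with CPM on a log axis against the 11 lines in library order, muscle isoforms as red circles and proliferating-cell isoforms as blue squares. The dashed line separates library 7 from library 8, and each of the 4 muscle isoforms drawn is lower to its right than to its left, from at least 332.8 CPM to at most 31.9 CPM for Slc2a4.

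The phosphofructokinases, which catalyse the committed step, also differed by isoform. Pfkm (ENSMUSG00000033065.14, chromosome 15, 98092589 to 98132451, plus strand) was at 2750.4, 1845, 2697, 5095, 4625, 1994 and 992 CPM in libraries 1 to 7. In libraries 8 to 11 it was at 175, 131, 167 and 307 CPM. The sets did not overlap, and the lowest of libraries 1 to 7 was F318 ROV. Pfkp (ENSMUSG00000021196.14, chromosome 13, 6579768 to 6648777, minus strand), the platelet form, was at 7.55, 11.8, 15.6, 10.3, 6.63, 45.1 and 47.8 CPM. It was at 88.3, 124, 157 and 109 CPM in libraries 8 to 11, with no overlap. Per kilobase of exon, Pfkm made up a median of 98.9% of phosphofructokinase in libraries 1 to 7 and 49.2% (range 35.7 to 61.2%) in libraries 8 to 11. The liver form Pfkl supplied 1.06% and 45.6%, and Pfkp 0.143% and 6.98%. With the length of the longest coding transcript instead, the median shares in libraries 8 to 11 were 36.9% for Pfkm (range 24.5 to 44.1%), 52.4% for Pfkl and 13.7% for Pfkp. In libraries 1 to 7 they were then 98.2%, 1.62% and 0.397%. Pfkm shares 10.2% of its exon length with Gm26513 on the same strand, and reads there could be split.

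Of the other genes of the upper pathway, the hexokinase Hk1 was lower without overlap in libraries 1 to 7 (12.2 to 94.99 CPM against 167 to 246 CPM). Hk2, the hexokinase of muscle and of many tumors, overlapped (106 to 637 against 54.1 to 146 CPM). Per kilobase, Hk2 was a median of 87.1% of both in libraries 1 to 7 and 44.3% in libraries 8 to 11. Gpi1, which turns glucose 6-phosphate to fructose 6-phosphate, was at 610 to 1418 against 314 to 381 CPM. Of the enzymes that make and remove fructose 2,6-bisphosphate, Pfkfb1 (17.3 to 97.9 against 2.51 to 6.78 CPM) and Pfkfb3 (85.3 to 1066 against 56.3 to 82.7 CPM) were higher in libraries 1 to 7. Pfkfb2 overlapped at 4.44 to 14.6 against 3.29 to 5.41 CPM, and it shares 17.4% of its exon length with Gm29427. Pfkl overlapped as well, at 18.5 to 195 against 134 to 451 CPM.

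In the lower pathway the muscle isoforms of enolase and mutase were higher, and their counterparts lower, in libraries 1 to 7. Eno3 (ENSMUSG00000060600.15, chromosome 11, 70657202 to 70662513, plus strand) was at 2879, 2138, 2394, 5324, 5921, 2170.3 and 939 CPM in libraries 1 to 7. In libraries 8 to 11 it was at 159, 75.9, 165 and 553 CPM. Those sets did not overlap. Eno1 (ENSMUSG00000063524.13, chromosome 4, 150236721 to 150248879, plus strand), the enolase of most cells, was at 126, 85.4, 144, 102, 47.6, 278 and 456 CPM. In libraries 8 to 11 it was at 638, 964, 655 and 744 CPM. No overlap was seen, and the 2 highest of libraries 1 to 7 were F319 ROV and F318 ROV. Per kilobase of exon, Eno3 was a median of 98.6% of enolase in libraries 1 to 7 and 43.3% in libraries 8 to 11. In the latter its share ran from 19.1% in F318 LOV to 69.6% in F333 uterus. With the longest coding transcript the median there was 24.4% (9.09 to 49.0%). Pgam2 (ENSMUSG00000020475.3, chromosome 11, 5801640 to 5803733, minus strand), whose promoter is printed above, was at 711, 694, 552, 1845, 2051, 804 and 383 CPM. In libraries 8 to 11 it was at 25.1, 7.20, 17.9 and 129.8 CPM, with medians 33.0-fold apart. Pgam1 (ENSMUSG00000011752.7, chromosome 19, 41911923 to 41918660, plus strand) ran the other way, at 9.13, 7.59, 14.0, 17.5, 6.92, 32.1 and 41.3 CPM against 104, 109, 127 and 147 CPM. Neither gene overlapped between the sets.

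Near-identical copies hold part of the reads of several of these genes, and how reads were split was not tested. Copies of Eno1 (among them Eno1b) held 28.8 to 51.1% of the counts of gene and copies together, and Pgam1-ps2 held 51.8 to 68.1% of those of Pgam1. Copies of Gapdh, which oxidises glyceraldehyde 3-phosphate, held 73.4 to 96.8%, so that its 35.8 to 94.2 against 22.7 to 30.7 CPM say little of its level. Gm1840 held 25.8 to 35.8% for Gpi1, and copies held 11.2 to 16.8% for Pgk1, 10.2 to 13.2% for Pkm and 4.75 to 10.6% for Ldhb. Adding the counts of copies left the Eno3/Eno1 and Pgam2/Pgam1 ratios without overlap between the sets.

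Of the remaining enzymes of the lower pathway, the aldolase Aldoa did not overlap between the sets. It was at 5166 to 8972 against 1117 to 1827 CPM. Tpi1, the triosephosphate isomerase, overlapped at 757 to 2755 against 670.4 to 1073 CPM. Pgk1, which makes the first ATP of the pathway, overlapped at 90.2 to 166 against 69.7 to 221 CPM. Pyruvate kinase Pkm was at 1739 to 4166 against 1055 to 2371 CPM, and gene counts do not separate its M1 and M2 forms. Eno2, the neuronal enolase, was at 1.46 to 11.5 against 3.25 to 26.8 CPM, and Aldoc at 0.253 to 1.25 against 0.436 to 1.61 CPM.

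At the fate of pyruvate, Ldha, the lactate dehydrogenase that favours lactate, overlapped at 963 to 2802 against 958 to 1365 CPM. Ldhb, the form of oxidative tissues, was at 104 to 314 against 13.9 to 29.1 CPM, and per kilobase its median share of both was 20.2% and 3.20%. The pyruvate dehydrogenase kinases, which switch off entry of pyruvate into the mitochondrial cycle, split by isoform. Pdk2 was at 548 to 748 against 16.5 to 53.4 CPM and Pdk4 at 306 to 3485 against 58.3 to 162 CPM. Pdk3 was lower in libraries 1 to 7, at 1.69 to 20.3 against 30.9 to 74.4 CPM, and Pdk1 overlapped at 52.3 to 118 against 31.8 to 223 CPM. Per kilobase, Pdk1 and Pdk3 were a median of 1.60% and 0.589% of the 4 kinases in libraries 1 to 7 and of 19.5% and 27.3% in libraries 8 to 11.

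The genes grouped here as glycogen genes include Fbp2, a fructose-1,6-bisphosphatase. Of the 7 with a mean of at least 1 CPM, Pygm being the one below it, 5 (Fbp2 among them) were higher without overlap in libraries 1 to 7. Another 1 was lower, against the 17.1% and 27.8% of all genes given above. Phkg1, the muscle catalytic subunit of phosphorylase kinase, was at 52.9 to 580.1 against 2.01 to 29.3 CPM, and Phka1, its muscle alpha subunit, at 91.0 to 660.3 against 22.3 to 77.7 CPM. Glycogen synthase Gys1 was at 365 to 668 against 101 to 181 CPM and the branching enzyme Gbe1 at 87.1 to 163 against 20.1 to 40.4 CPM. Fbp2, the fructose-1,6-bisphosphatase of muscle, was at 28.1 to 144 CPM in the first set and at 1.33 to 2.97 CPM in F339 ROV and the uterus lines. F318 LOV had 0 counts of Fbp2, which allows up to 0.131 CPM at 3 counts. Pygb, the brain glycogen phosphorylase, was lower in libraries 1 to 7 (9.79 to 73.2 against 89.7 to 157 CPM).

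The muscle glycogen phosphorylase could not be read. Pygm (ENSMUSG00000032648.14, chromosome 19, 6384399 to 6398459, plus strand) was listed at 0, 2, 3, 4, 20, 12 and 0 counts in libraries 1 to 7 and at 0 in each of libraries 8 to 11, also where other muscle fiber genes took 14.4% of counts. Its neighbours Sf1 and Atg2a, which most cells express, were listed at 0 or 1 count in every library, while Rps6ka4 further along had 374 to 4213 counts. A cause for these rows was not tested, and the Pygm/Pygl pair is left out of what follows. Pygl (ENSMUSG00000021069.17, chromosome 12, 70190811 to 70231488, minus strand), the liver form, was at 1.14, 1.77, 2.15, 1.20, 4.12, 2.15 and 6.68 CPM in libraries 1 to 7 and at 0.314, 33.4, 21.3 and 1.11 CPM in libraries 8 to 11. F318 LOV and F319 uterus stood above all other lines, and the sets overlapped.

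The readable pairs were also set against each other line by line, as ratios within a library. The log2 ratio of (CPM + 1) of Pfkm over Pfkp was 4.35 to 9.24 in libraries 1 to 7 and 0.07 to 1.48 in libraries 8 to 11, and that of Eno3 over Eno1 1.04 to 6.93 and -3.65 to -0.43. Pgam2 over Pgam1 gave 3.19 to 8.02 and -3.74 to -0.18, and Slc2a4 over Slc2a1 2.02 to 5.85 and -5.69 to -1.25. Without the pseudocount, on the counts, the last ran from 2.03 to 5.98 and from -6.08 to -1.28. None of the 4 overlapped either way, and the means of the sets on the log2(CPM + 1) scale lay 6.59, 6.27, 7.90 and 7.30 apart. The order of the lines was alike at its ends: F361 peritoneal tumor was highest in all 4 ratios and F318 LOV lowest. Within libraries 1 to 7, F318 ROV was lowest in all 4, and it also had the smallest share of muscle fiber counts, 7.71%. These ratios are not corrected for length and serve to compare libraries, not genes.

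Levels were also divided by the counts of the muscle fiber list, and the 4 readable muscle isoforms then ranged less over the lines than in CPM. The list itself ranged 91.7-fold over the 11 libraries and 20.95-fold without F318 LOV. Per 1000 counts on it, Slc2a4 ranged 3.03-fold while its CPM ranged 213-fold, and Eno3 3.96-fold against 78.1-fold. Pgam2 ranged 5.89-fold against 285-fold, Pfkm 6.46-fold against 39.03-fold, Phkg1 6.81-fold against 289-fold and Pdk2 3.19-fold against 45.5-fold. The highest ratio of Pfkm was 83.1 per 1000 in F318 LOV, where the list is smallest, and without that line Pfkm ranged 2.85-fold against 30.5-fold in CPM. The CPM ranges of Slc2a4, Pgam2 and Eno3 were then 48.6-fold, 114-fold and 37.3-fold, against 3.03-fold, 5.89-fold and 3.66-fold for their ratios. Phkg1 then ranged 109-fold in CPM against 6.81-fold, and Pdk2 25.1-fold against 2.17-fold. For Pfkp, Eno1, Pgam1 and Slc2a1 the ratio ranged more widely than the CPM, 1718-fold, 1855-fold, 1438-fold and 1834-fold against 23.6-fold, 20.2-fold, 21.3-fold and 20.0-fold. Without F318 LOV those ratios ranged 495-fold, 288-fold, 386-fold and 277-fold. In all, 10 of 36 genes with a mean of at least 1 CPM and reads in every library had a narrower range after the division, against 7.81% of 13811 such genes outside the list, and without F318 LOV 14 had, against 10.8%. The other 4 of the 10 were Pfkfb1, Ldhb, Pdk4 and Phka1. Of the 17 genes higher without overlap in CPM, 10 overlapped after the division, among them Pfkm, Eno3 and Pgam2. Slc2a4 (2.68 to 5.70 per 1000 against 1.88 to 2.57) and Fbp2 were still higher in libraries 1 to 7, and Gpi1, Aldoa, Gapdh, Gys1 and Gbe1 were lower. Over all 14633 genes of that mean outside the list, 0.355% were higher after the division and 84% lower. Whether muscle RNA accounts for these levels was not tested.

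**Figure D3:**
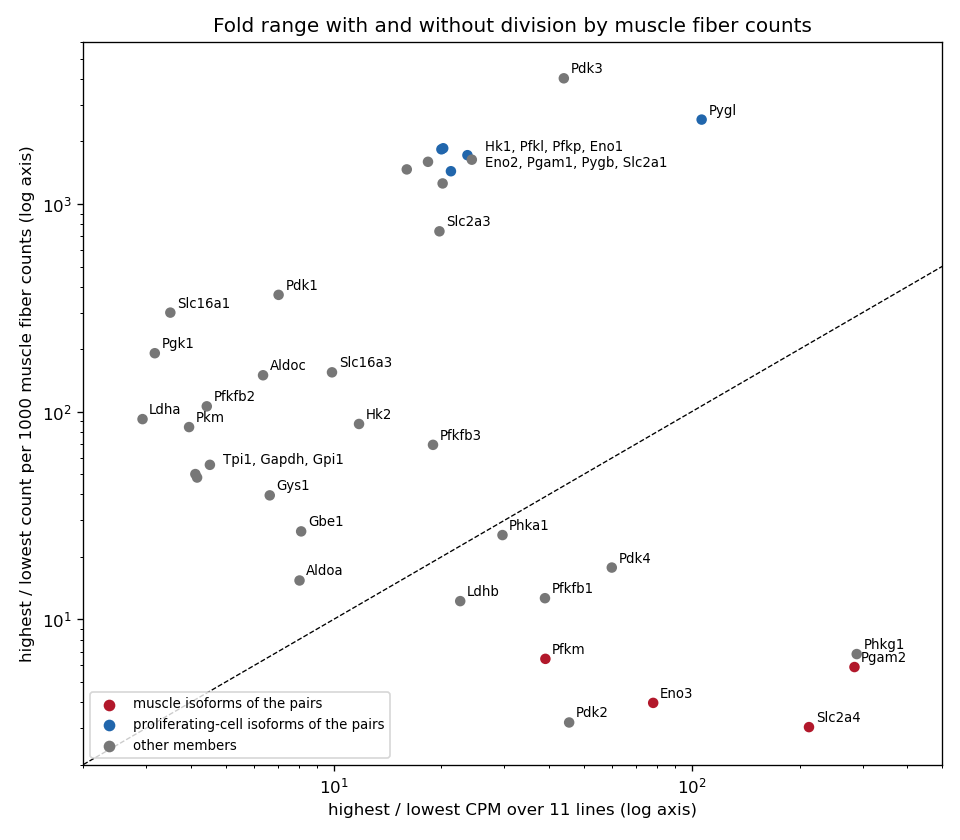
Each point is a gene, with the highest over the lowest CPM of the 11 lines on the x axis and the same for counts per 1000 muscle fiber counts on the y axis, both on log axes, and the dashed line marks equal ranges. Slc2a4, Pgam2, Eno3 and Pfkm (red) lie below the line, between 3.03-fold and 6.46-fold on the y axis, and their proliferating-cell counterparts (blue) lie above it, from 1438-fold up. Pygm and Fbp2, which have a library at 0, are not drawn.

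Lines of 1 mouse allowed a look within an animal. The right and left ovary lines of F318 lie on both sides of the cut, and 29 of the 37 genes with a mean of at least 1 CPM differed by more than 1 on the log2(CPM + 1) scale between them, against 37.7% of 14665 genes. Slc2a4 was 136-fold higher in F318 ROV and Pgam2 53.2-fold, while Pfkp was at 47.8 CPM against 124 CPM. The ovary and uterus lines of F319 also lie on both sides, and 27 of the 37 differed by more than 1, against 49.2% of genes, Pgam2 being 44.8-fold higher in the ovary line. The ovary lines of F364, both within libraries 1 to 7, differed by more than 1 in 2 of the 37 (6.98% of genes). The splenic tumor and right ovary lines of F326, again both within libraries 1 to 7, did so in 18 of the 37 (23.4% of genes), with Pfkm at 1845 and 5095 CPM and Hk2 at 106 and 637 CPM. These genes were chosen after their values were seen, and each line has 1 library, so no test was made.

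The labels give the organ, so lines of the uterus and of the ovary were compared here. DESeq2 called some of these genes in that comparison while edgeR called none. With edgeR's quasi-likelihood test on 2 uterus against 7 ovary lines, 0 of 38 tested genes had a Benjamini-Hochberg adjusted p under 0.05, as had 0% of all 17446 genes tested. At an unadjusted p under 0.05 there were 8 of the 38 and 2309 of all genes (13.2%). DESeq2 called 7 of the 38, all lower in the uterus (Pfkm, Ldhb, Slc2a3, Slc2a4, Pdk2, Gys1 and Fbp2). Of the 18122 genes to which it gave an adjusted p it called 1315. Those called lower were 1146, or 6.32% of the 18122. The largest changes by edgeR were those of Fbp2, with a log2 fold change of -4.77 (SE 2.33), Slc2a4, with -4.12 (SE 1.84), and Pdk2, with -3.97 (SE 1.502), each with an adjusted p of 0.359. Slc2a4 averaged 23.0 ± 12.6 CPM (SD, n = 2) in uterus lines and 334 ± 248 CPM (SD, n = 7) in ovary lines. Both uterus lines are in libraries 8 to 11 and 5 of the 7 ovary lines in libraries 1 to 7. Within libraries 8 to 11, 2 lines against 2, the log2 fold change was 1.55 for Fbp2, 1.08 for Slc2a4 and 0.056 for Pdk2, none with an adjusted p under 0.05. There the organs overlapped: F339 ROV lay above F319 uterus for Slc2a4 (19.6 and 14.1 CPM), Fbp2 (1.53 and 1.33 CPM) and Pdk2 (53.4 and 29.8 CPM), and F318 LOV was the lowest for all 3. With mouse as a block the difference rests on F319, whose ovary and uterus lines lie on both sides of the cut. The values were then -7.02 for Fbp2, -4.83 for Slc2a4 and -4.73 for Pdk2, and organ and library set cannot be told apart there. The median over the 38 genes was -1.33 with all 9 lines and 0.02 within libraries 8 to 11. Slc2a3, picked after its values were seen, was lower in both, at -3.61 (SE 1.09) with all lines and -3.25 (SE 1.24) within libraries 8 to 11, where the difference rests on the 20.2 CPM of F318 LOV.

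**Figure D4:**
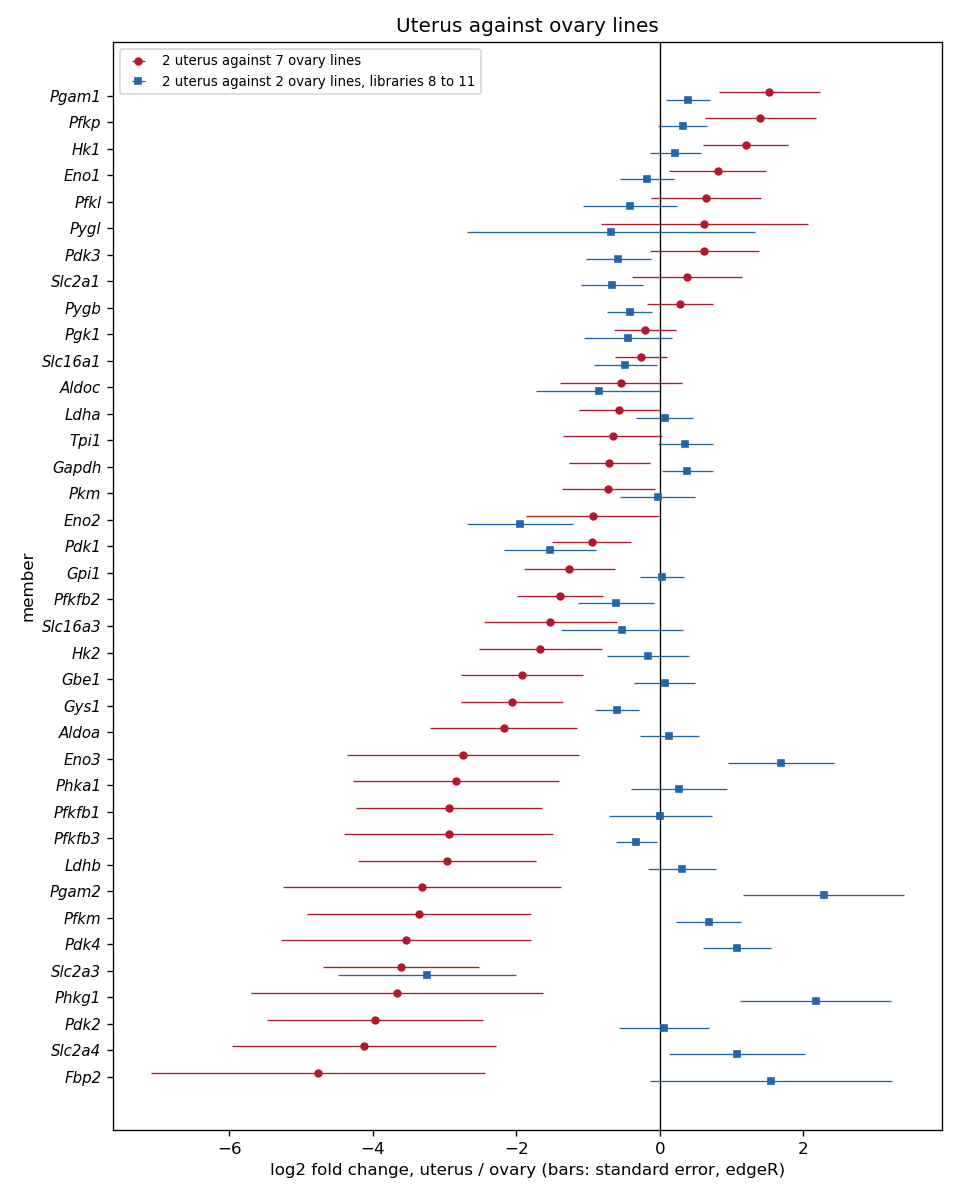
The x axis is the log2 fold change of uterus over ovary lines by edgeR with its standard error, and each row is 1 of the 38 tested genes. Red circles (2 uterus against 7 ovary lines) run from 1.52 for Pgam1 to -4.77 for Fbp2, and blue squares (2 against 2 lines within libraries 8 to 11) run from 2.29 for Pgam2 to -3.25 for Slc2a3, with Fbp2 and Slc2a4 on the other side of 0.

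The 2 lines from tumors of the abdomen were set against the 5 ovary lines within libraries 1 to 7, where muscle content differs less. Again 0 of 38 genes passed edgeR's test, as did 0% of 16299 genes. An unadjusted p under 0.05 was met by 5 of the 38 genes and by 1636 of all genes (10%). DESeq2 called 349 of 15344 genes, 334 of them lower (2.18% of the 15344), and 1 of the 38, Pfkl, lower in the tumor lines. Pfkl had a log2 fold change of -1.81 (SE 0.54, adjusted p = 0.416 by edgeR), with 24.6 ± 8.55 CPM (SD, n = 2) in tumor lines and 99.1 ± 60.2 CPM (SD, n = 5) in ovary lines. Eno1 followed at -1.52 (SE 0.57) and Pgam1 at -1.45 (SE 0.51). With mouse as a block, where the difference rests on F326, the values were -2.46, -0.17 and -1.12. Without the block none of the 4 muscle isoforms had an unadjusted p under 0.05, and their log2 fold changes were 0.78 (SE 0.65) for Pgam2, 0.65 (SE 0.68) for Eno3, 0.44 (SE 0.37) for Slc2a4 and 0.35 (SE 0.66) for Pfkm. With the block by mouse they were -1.32, -1.23, -0.45 and -1.38, the difference between the F326 lines. The spread in that fit rests on 1 residual degree of freedom, from the F364 pair, so these values are a description. The median over the 38 genes was 0.12, and it was -0.42 without the peritoneal tumor line, 0.45 without the splenic tumor line and -0.75 with mouse as a block.

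Of 64 other genes of these pathways, 50 had a mean of at least 1 CPM, and 27 of those were higher without overlap in libraries 1 to 7 and 5 lower, against 17.1% and 27.8% of all genes with that mean. With TMM factors 31 were higher and 4 lower, against 22.7% and 19.5%. None passed edgeR's test in either comparison, out of 53 and 54 tested, while DESeq2 called 7 of 54 lower in the uterus (6.32% of all genes) and 0 of 52 in the tumor comparison. Described here are 4 of the 5 with the widest differences, all of them higher in libraries 1 to 7. Gpd1, which links glycolysis to glycerol phosphate, was at 42.5 to 629 against 2.44 to 26.9 CPM. Ldhd, the D-lactate dehydrogenase, was at 26.6 to 84.0 against 0.436 to 3.76 CPM. Ppp1r3c, which targets a phosphatase to glycogen, was at 133 to 896 against 15.4 to 58.2 CPM, and Epm2a, the glycogen phosphatase laforin, at 61.6 to 183 against 1.83 to 10.4 CPM.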

How the data were processed

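Poly(A) RNA of 11 cell lines was sequenced with directional libraries. Per the study's methods and the labels, the authors aligned reads with STAR to GRCm38 (mm10), removed PCR duplicates and deposited whole-number counts per gene from featureCounts. The strand setting is not given in the sources used here. All columns were matched to labels, no 2 libraries held identical values, and samples are separate lines, some from the same mouse, so p-values measure the spread between lines. Counts were divided by the library total to give CPM (3 counts are worth 0.111 to 0.221 CPM), and log2 values used a pseudocount of 1. Intervals and floors cover counting error only. Organs were compared in R 4.3.3 with edgeR 4.0.16 (TMM, filterByExpr, glmQLFit and glmQLFTest, Benjamini-Hochberg over all genes tested), with DESeq2 1.42.0 as an alternative, after tests on simulated data. The sets of libraries were compared by overlap of CPM. Gene lengths, overlaps and near copies (BLAST 2.17.0, at least 95% identity over at least 30% of a transcript) came from GENCODE on GRCm38. Acta1 of the muscle list was not analysed here. The 10 paired isoforms are given in every line, the others by range, and from each test the genes called or, with none called, the 3 with the largest change, and 5 further pathway genes by the difference of medians, 1 of which is not reported here. Members, lists and the cut between libraries 7 and 8 were chosen with earlier results of these data known.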

Additional observations from a re-analysis of the deposited data

How the results depend on the processing

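Replicate numbers are only accession order, but lines of the same mouse can be paired by a replicate block. In it the organ difference rests on 1 mouse (F319 for uterus and ovary, F326 for tumor and ovary). The F319 lines lie on both sides of the cut between libraries 7 and 8. With that block edgeR called 0 genes and 0 members in either comparison, at an unadjusted p under 0.05 for 1500 and 2966 genes and for 3 and 17 members, on 2 and 1 residual degrees of freedom. Against 0 calls by edgeR, DESeq2 called 1315 genes (7 of the 38 members) for uterus against ovary and 349 (1 member) for tumor against ovary lines. Without a filter on low counts, uterus against ovary gave 2 genes. Leaving out 1 line at a time gave 0 to 1 genes in either comparison (1 without the F333 uterus line, 1 without F318 ROV) and 0 members. DESeq2 took past the threshold Fbp2 (-4.81), Slc2a4 (-4.16) and Pdk2 (-4.02), and Pfkl in the tumor comparison (-1.79). Within libraries 8 to 11 the log2 fold changes were 1.55, 1.08 and 0.056 for Fbp2, Slc2a4 and Pdk2, and with a term for the library set to 1.57, 1.12 and 0.10. Leaving out 1 line at a time, the differences of the isoform ratios between the sets ranged from 5.73 to 6.81 for Eno3/Eno1, 6.25 to 7.07 for Pfkm/Pfkp, 7.38 to 8.57 for Pgam2/Pgam1 and 6.47 to 7.96 for Slc2a4/Slc2a1, and with copies counted they were 6.14 for Eno3/Eno1 and 7.77 for Pgam2/Pgam1. Members without overlap numbered 17 to 18 higher and 6 to 8 lower. The median Pfkm share in libraries 8 to 11 moved from 49.2% to 36.9% with the longest coding transcript, and the cause is the length used. The F364 and F318 pairs of ovaries were also reduced to 1 library per mouse and organ, and no member was called. The mouse block, the reduction to 1 library per mouse in the tumor comparison, adding copies, the ranges without F318 LOV, the share by transcript length and the leave-one-out for proportions were chosen after seeing the data. Depth limits Fbp2 in F318 LOV, which had 0 counts.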

Other observations

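Of the 15 regulators and targets of low oxygen listed beside the members, 3 were lower and 5 higher without overlap in libraries 1 to 7, and 7 overlapped, on the CPM scale, where 27.8% of all genes were lower and 17.1% higher. With TMM factors or DESeq2 size factors 2 were lower and 6 higher, against 19.5% and 22.7% of genes with TMM. Myc, which the transgene carries, was at 6.92 to 93.6 CPM in the first set against 153 to 291 CPM in the second. Hif1a, the low-oxygen factor, was at 14.7 to 132 against 241 to 385 CPM, and its relative Epas1 ran the other way at 61.8 to 210 against 5.37 to 27.9 CPM. Txnip, a gene that glucose raises, was at 398 to 1102 against 107 to 365 CPM. The related Arrdc4 overlapped, at 7.95 to 39.9 against 11.2 to 77.6 CPM, with medians of 23.6 and 25.2 CPM. Mlxipl, the factor that answers to glucose, was at 28.7 to 106 against 0.436 to 3.44 CPM, and the related Mlxip at 68.1 to 212 against 46.4 to 56.4 CPM. Ppargc1a, a coactivator of oxidative metabolism, was at 17.3 to 41.5 against 1.09 to 16.3 CPM. Car9 was lower in libraries 1 to 7 at 0.380 to 1.43 against 1.49 to 2.62 CPM, and overlapped with TMM factors, with DESeq2 size factors and without the muscle list. Targets of low oxygen that overlapped were Vegfa (152 to 399 against 226 to 578 CPM), Bnip3 (higher without overlap in libraries 1 to 7 with TMM or DESeq2 factors), Ndrg1, Egln3, Ankrd37 and Adm.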
